A study of Arabidopsis thaliana with 8 samples.

Results

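The genes described here are 10 well-known genes of iron uptake and iron deficiency in *Arabidopsis thaliana*, listed by their identifiers: IRT1 (AT4G19690), FRO2 (AT1G01580), FIT (AT2G28160), bHLH38 (AT3G56970), bHLH39 (AT3G56980), bHLH100 (AT2G41240), bHLH101 (AT5G04150), PYE (AT3G47640), BTS (AT3G18290) and FER1 (AT5G01600). All 10 were among the 37336 genes of the count files, and 6 passed the filter on low counts that precedes the test. Their transcripts were compared between 4 wild-type (Col-0) libraries and 4 libraries of *ubp5*, a single CRISPR/Cas9 deletion line in the Col-0 background that lacks part of UBP5, a ubiquitin protease gene. Both genotypes were grown on MS agar, which supplies iron, in long days, and RNA came from seedlings frozen 12 days after germination, so roots and shoots were measured together. The assay was a 3′ RNA-seq that counts distinct molecular tags per transcript. No iron treatment was part of the design.

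Plants take up iron from soil in the root epidermis. FRO2, a ferric chelate reductase, reduces iron at the root surface, and IRT1 carries the reduced iron across the plasma membrane. Both genes are switched on under iron deficiency by the transcription factor FIT, which acts together with the subgroup Ib bHLH factors bHLH38, bHLH39, bHLH100 and bHLH101. PYE is a bHLH repressor of iron homeostasis genes, and BTS is an E3 ubiquitin ligase that marks upstream bHLH activators for degradation. FER1 encodes a ferritin, a plastid protein that stores iron, and its transcript is known to rise when iron is in excess.

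Several of these regulators are bHLH factors, a family known to bind the palindrome CACGTG, called the G-box. The 250 bases before the annotated gene start are therefore shown for the 4 Ib genes, for BTS and for FER1, from the RefSeq annotation of TAIR10.1, written 5′ to 3′ in the direction of transcription with each G-box in capitals. The windows lie at chr3:21085246-21085495 for bHLH38, chr3:21087711-21087960 for bHLH39, chr2:17199455-17199704 for bHLH100 and chr5:1139634-1139883 for bHLH101, all on the minus strand. That of BTS lies at chr3:6273716-6273965 on the plus strand, and that of FER1 at chr5:230052-230301 on the minus strand.
bHLH38: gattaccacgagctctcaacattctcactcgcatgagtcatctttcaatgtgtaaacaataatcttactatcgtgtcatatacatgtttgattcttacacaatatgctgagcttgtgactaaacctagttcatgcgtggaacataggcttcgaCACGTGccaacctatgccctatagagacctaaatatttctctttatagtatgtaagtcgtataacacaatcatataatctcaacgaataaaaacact
bHLH39: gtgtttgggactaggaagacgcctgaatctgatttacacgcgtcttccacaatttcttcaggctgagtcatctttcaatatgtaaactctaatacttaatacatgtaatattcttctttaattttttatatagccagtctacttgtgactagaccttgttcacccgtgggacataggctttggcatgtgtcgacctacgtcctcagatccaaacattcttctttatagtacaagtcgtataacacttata
bHLH100: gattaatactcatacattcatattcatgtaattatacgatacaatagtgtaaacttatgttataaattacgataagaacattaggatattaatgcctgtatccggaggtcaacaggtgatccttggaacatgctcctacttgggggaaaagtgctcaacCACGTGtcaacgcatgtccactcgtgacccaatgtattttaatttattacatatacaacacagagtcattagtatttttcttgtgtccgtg
bHLH101: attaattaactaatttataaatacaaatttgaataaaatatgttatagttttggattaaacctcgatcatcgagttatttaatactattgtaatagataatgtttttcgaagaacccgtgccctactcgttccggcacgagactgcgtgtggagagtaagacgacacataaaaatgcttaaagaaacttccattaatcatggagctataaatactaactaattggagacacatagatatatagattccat
BTS: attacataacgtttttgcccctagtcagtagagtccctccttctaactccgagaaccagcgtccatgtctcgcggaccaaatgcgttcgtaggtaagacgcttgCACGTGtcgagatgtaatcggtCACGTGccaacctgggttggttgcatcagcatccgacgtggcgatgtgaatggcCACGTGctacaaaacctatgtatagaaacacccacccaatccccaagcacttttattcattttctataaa
FER1: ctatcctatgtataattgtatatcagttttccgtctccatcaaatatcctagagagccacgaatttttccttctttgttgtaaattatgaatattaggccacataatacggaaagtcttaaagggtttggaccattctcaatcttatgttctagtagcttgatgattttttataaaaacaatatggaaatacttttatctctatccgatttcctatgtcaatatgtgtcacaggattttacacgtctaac

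The G-box was searched on both strands and is its own reverse complement, so each match counts once. It was found in 3 of the 10 windows. The first base of the match lay 97 bases before the gene start in bHLH38 and 91 bases before it in bHLH100, and BTS held 3 matches, at 146, 124 and 70 bases. Of the 27443 windows of protein-coding genes, 1780 held a G-box, or 6.49%. The windows of bHLH39 and bHLH101 held none. Of the Ib genes whose transcripts rose in *ubp5*, described further on, bHLH38 thus had a match and bHLH101 had none. A match is only a string of letters in this window.

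Total counts ranged from 2572842 to 2997743 in Col-0 and from 1440510 to 2595285 in *ubp5*. Levels are given as CPM, the count divided by the TMM-scaled size of the library and brought to a common total. A floor of 3 counts, below which no transcript was taken as shown, corresponds to 1.00 to 2.11 CPM depending on the library. UBP5 itself fell from 17.4 ± 4.33 to 5.89 ± 1.53 CPM (mean ± SD, n = 4 each; log2 fold change -1.53, adjusted p = 0.00236), in the direction of the labels. A principal component that held 15.3% of the variance placed Col-0 replicate 1 away from the remaining 7 libraries. Root markers were present: the summed level of 21 root genes was 390 to 577 CPM in Col-0 and 304 to 455 CPM in *ubp5*, with overlapping groups, none of the 21 was at 0 in all libraries, and 1 of the 15 tested passed the adjusted p threshold as lower, the root phosphate exporter gene PHO1, a share close to the 6.34% of all tested genes that did so. The summed level of 6 leaf genes was 30095 to 39997 CPM in Col-0 and 25868 to 28608 CPM in *ubp5*, without overlap, and 3 of the 6 passed, all lower, against the same 6.34%. Fewer cells of a type and less RNA per cell cannot be told apart in such samples.

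In *ubp5*, transcripts of the Ib regulators bHLH38 and bHLH101 rose and the ferritin transcript FER1 fell, while the root uptake genes showed no change that passed the test. A gene was called changed if its adjusted p was under 0.05 in edgeR's quasi-likelihood test and its level differed by 1 or more on the log2 scale. Of the 6 tested genes, 2 were called higher and 1 was called lower. The share called higher among all 15649 genes in the test was 1.91%, and the share called lower was 2.93%. Without the fold threshold the same 3 genes passed, against 4.59% higher and 6.34% lower among all tested genes. The libraries of the genotypes did not overlap for 2 genes that were higher and 1 that was lower in *ubp5*, against 7.87% and 9.37% of all tested genes. The 6 are few, and the 4 others could not be tested in this fit. bHLH38 and bHLH101 had few counts in Col-0 and passed the filter through their *ubp5* libraries, while FRO2, FIT and bHLH100, also low in Col-0, did not pass it, so these counts do not describe all 10 genes.

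bHLH38 and bHLH39 are neighbours on chromosome 3, at chr3:21084035-21085245 and chr3:21086390-21087710, and both are read from the minus strand. bHLH38 stood at 1.14, 1.19, 1.13 and 3.68 CPM in Col-0 replicates 1 to 4 and at 4.59, 8.79, 5.64 and 8.60 CPM in *ubp5* replicates 1 to 4. Every *ubp5* library was above every Col-0 library. The mean rose from 1.78 ± 1.26 to 6.90 ± 2.11 CPM (SD, n = 4 each), or by a log2 fold change of 1.92 (SE 0.41, 95% interval 1.02 to 2.81, adjusted p = 0.0111). The Col-0 values are low, since 3 of the 4 Col-0 libraries held 3 counts each, but the 4 libraries together held 20 counts in Col-0 and 59 in *ubp5*.

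bHLH101, at chr5:1138410-1139633, stood at 0.76, 2.38, 1.88 and 1.67 CPM in Col-0 and at 5.61, 7.26, 6.34 and 4.53 CPM in *ubp5*. Again no library of one genotype reached the range of the other. The Col-0 values are low, at 2, 6, 5 and 5 counts, and replicate 1 lay below the floor of 3 counts. The 4 libraries together held 18 counts in Col-0 and 49 in *ubp5*. The mean rose from 1.67 ± 0.68 to 5.93 ± 1.16 CPM (SD, n = 4 each), or by a log2 fold change of 1.80 (SE 0.35, 95% interval 1.05 to 2.56, adjusted p = 0.00607).

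bHLH39 was left out of the fit by the filter on low counts. Its levels were 1.90, 0.79, 0.75 and 3.34 CPM in Col-0 and 4.59, 8.02, 2.82 and 9.05 CPM in *ubp5*. Only Col-0 replicate 4 and *ubp5* replicate 3 crossed into the other group's range. Col-0 replicates 2 and 3 held 2 counts each, below the floor. The difference in mean CPM was 4.42, and the two-sided exact permutation test over 70 splits gave p = 0.0571, where 0.0286 is the smallest value these splits allow. Without the filter its log2 fold change was 1.84 (SE 0.47, adjusted p = 0.0178 in edgeR), and DESeq2 gave 1.87 (SE 0.60, adjusted p = 0.0300). With single libraries left out it entered the edgeR fit 5 times and passed in 3 of them, while the adjusted p was 0.0638 without Col-0 replicate 2 and 0.0607 without Col-0 replicate 3.

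bHLH100, at chr2:17198037-17199454, was the Ib gene without a clear difference. It stood at 0, 1.59, 1.88 and 2.68 CPM in Col-0 and at 0.51, 5.35, 1.41 and 1.36 CPM in *ubp5*. Most of these values are at or near 3 counts, and the mean of *ubp5* rests on replicate 2, which held 14 of its 20 counts. The exact permutation test gave p = 0.743, and the direction of the mean turned without that library, so a change was not detectable at this depth.

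The transcripts of bHLH38 and bHLH39 are 82.8% identical where they align and share at most 34 bases in a row. Full reads were longer than this, so only reads shortened by trimming could have fallen wholly within such a stretch and mapped to both genes. Such reads were not kept by the authors, who used reads with a single position. The counts of both may be slightly low to that extent. The longest stretch that bHLH101 shares with bHLH38 is 13 bases.

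Of the uptake genes proper, IRT1, at chr4:10707344-10709015, stood at 0.76, 5.56, 6.40 and 4.01 CPM in Col-0 and at 8.67, 11.8, 5.64 and 16.3 CPM in *ubp5*. The lowest *ubp5* library, replicate 3, lay below the highest Col-0 library, and Col-0 replicate 1 stood far below the other 3. That library held 2 counts of IRT1, below the floor. The means were 4.18 ± 2.49 and 10.6 ± 4.56 CPM (SD, n = 4 each), with a log2 fold change of 1.38 (SE 0.43, adjusted p = 0.0606), so IRT1 missed the threshold. The unadjusted 95% interval ran from 0.44 to 2.32. Without the filter on low counts the adjusted p was 0.0362, and without Col-0 replicate 3 it was 0.0483, both with a log2 fold change above 1. In the other 12 of 14 alternatives IRT1 was not called, and the adjusted p reached 0.191.

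FRO2, at chr1:208995-213082, held between 1 and 14 counts per library. Its levels were 1.14, 1.59, 0.75 and 3.34 CPM in Col-0 and 2.04, 5.35, 0.70 and 0.90 CPM in *ubp5*, so the groups overlapped fully. The exact permutation test gave p = 0.686.

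FIT, named FRU in the annotation and located at chr2:12004658-12006276, stood at 2.28, 4.76, 2.63 and 5.35 CPM in Col-0 and at 0.51, 3.82, 3.52 and 4.07 CPM in *ubp5*. The exact permutation test gave p = 0.514. Replicate 1 of *ubp5* held a single count, and without it the *ubp5* mean was above that of Col-0 by 0.06 CPM. A difference in FIT, the partner of the Ib factors, was not detectable at this depth.

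PYE, at chr3:17567126-17569394, and BTS, at chr3:6273966-6280562, were both tested and neither passed. PYE stood at 6.45, 5.95, 6.40 and 9.70 CPM in Col-0 and at 8.67, 6.11, 14.8 and 7.69 CPM in *ubp5*. Its log2 fold change was 0.31 (SE 0.30, 95% interval -0.33 to 0.95, adjusted p = 0.563). BTS stood at 41.7, 30.2, 42.5 and 53.5 CPM in Col-0 and at 36.7, 66.1, 47.2 and 57.0 CPM in *ubp5*. Its log2 fold change was also 0.31 (SE 0.20, 95% interval -0.12 to 0.73, adjusted p = 0.354). BTS has many counts in every library, and its interval leaves out a rise as large as those of bHLH38 and bHLH101.

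FER1, at chr5:227953-230051, was the gene of the 10 with the most counts and the only one called lower. It stood at 453, 306, 351 and 168 CPM in Col-0 and at 116, 90.9, 111 and 81.0 CPM in *ubp5*. The lowest Col-0 library, replicate 4, was still above the highest *ubp5* library, and the *ubp5* values were tightly grouped while those of Col-0 spread widely. The mean fell from 320 ± 118 to 99.7 ± 16.6 CPM (SD, n = 4 each), which is 3.21-fold lower, with a log2 fold change of -1.68 (SE 0.24, 95% interval -2.21 to -1.15, adjusted p = 0.00101). The call held with each library left out, with log2 fold changes from -1.90 to -1.47.

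**Figure D1:**
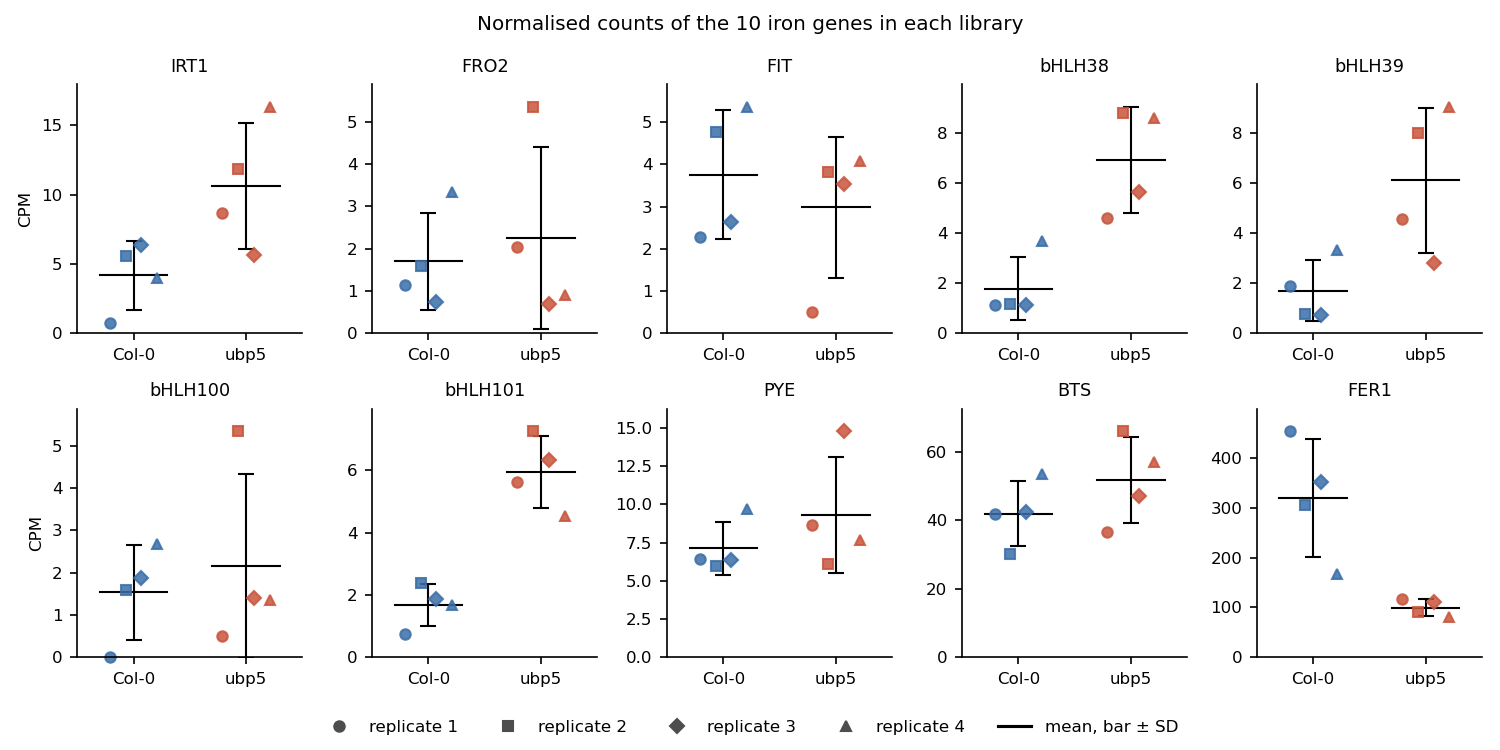
Level in CPM (vertical axes, from 0, scaled per gene) of the 10 iron genes in the 4 Col-0 and 4 ubp5 libraries, with symbols for replicate numbers and a black line and bar for the mean ± SD. The libraries of the genotypes are separate for bHLH38, bHLH101 and FER1 and overlap for the other 7 genes.

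Around these genes, 70 further iron genes in 6 lists were read from the same fit, and 46 of them could be tested. Of the 46, 4 were called higher and 2 lower, and without the fold threshold 5 passed as higher and 4 as lower, while 37 did not pass. The shares over the whole fit were 1.91% and 2.93% for calls, and 4.59% and 6.34% for the adjusted p alone. The 4 called higher had low counts in part of the Col-0 libraries and passed the filter only with their *ubp5* libraries. Their number thus depends on the group in which they were high, and it does not describe all 70 genes. The libraries did not overlap for 7 that were higher and 4 that were lower in *ubp5*, against 7.87% and 9.37% of all tested genes, so the count of separate lower genes was near the background.

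Among the 15 upstream regulators, 10 were tested and 2 were called higher, against 1.91% of all tested genes. These were AT1G47395 and AT2G30766, which RefSeq lists as uncharacterized proteins. AT1G47395 stood at 0.76, 1.59, 1.88 and 8.36 CPM in Col-0 and at 10.2, 21.8, 12.7 and 19.5 CPM in *ubp5* (log2 fold change 2.30, SE 0.50, adjusted p = 0.0110). Its Col-0 replicate 1 held 2 counts, below the floor. AT2G30766 stood at 2.66, 2.38, 6.77 and 7.36 CPM in Col-0 and at 12.2, 29.0, 18.3 and 24.0 CPM in *ubp5* (log2 fold change 2.11, SE 0.36, adjusted p = 0.00257). For both, all *ubp5* libraries were above all Col-0 libraries, and Col-0 replicate 4 was the highest of its genotype. AT1G47400 of the same list, which has no symbol in the annotation, shares a stretch of 59 bases with AT1G47395. Its log2 fold change was 1.49 (SE 0.45), and it just missed with an adjusted p of 0.0518. Reads within the shared stretch would not have been kept, and the counts of the pair are uncertain to that extent.

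Among the bHLH activators of subgroup IVc, which are known to switch on the Ib genes, the tested ones showed no rise. A further one, bHLH34, had too few counts to be tested, with 24 in Col-0 and 18 in *ubp5*. ILR3, the gene with the most counts in this list, stood at 86.1 to 94.4 CPM in Col-0 and at 67.6 to 80.6 CPM in *ubp5* (log2 fold change -0.29, SE 0.10, adjusted p = 0.0918). The groups did not overlap, but the difference missed the threshold. For bHLH104 the log2 fold change was -0.08 (95% interval -0.33 to 0.16) and for bHLH115 it was -0.09 (95% interval -0.34 to 0.15), both well short of the size seen for bHLH38 and bHLH101.

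None of the 8 tested genes of root acquisition and coumarin export passed, out of 15 in the list. Over the whole fit 4.59% passed as higher and 6.34% as lower, so few of 8 would be due. The median log2 fold change of the 8 was 0.11, against -0.01 over the whole fit. AHA2, a plasma membrane proton pump and the gene with the most counts in the list, stood at 365 to 426 CPM in Col-0 and at 357 to 385 CPM in *ubp5* (log2 fold change -0.11, SE 0.10, adjusted p = 0.519). IRT2, whose transcript is 74.1% identical to that of IRT1 where they align, had too few counts to be tested, with 3 to 9 per library in Col-0 and 0 to 3 in *ubp5*. Of the 7 other ferric reductase oxidase genes, 5 were tested and none passed, which is likewise near the shares over the whole fit. FRO6, a ferric reductase known from green tissue, stood at 34.2 to 48.8 CPM in Col-0 and at 32.4 to 36.2 CPM in *ubp5* (log2 fold change -0.15, SE 0.14, adjusted p = 0.563).

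Of the 11 genes of iron chelation and long-distance transport, 7 were tested and 1 passed as higher, against 4.59% of all tested genes. The gene that passed was OPT3, a transporter that loads iron into the phloem. OPT3 stood at 44.0, 54.4, 66.6 and 75.9 CPM in Col-0 and at 93.4, 127, 90.2 and 110 CPM in *ubp5*, and the groups did not overlap. Its log2 fold change of 0.81 (SE 0.17, adjusted p = 0.00931) was below the fold threshold, so OPT3 rose but was not called.

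Of the 13 storage and organelle transport genes, 9 were tested, 3 passed as lower, none passed as higher and 6 did not pass. Over the whole fit 6.34% passed as lower and 4.59% as higher. The 3 were FER3, FER4 and NRAMP3. FER3 and FER4 are ferritin genes like FER1. FER3 stood at 65.7, 63.9, 45.1 and 45.2 CPM in Col-0 and at 36.7, 32.5, 23.9 and 28.5 CPM in *ubp5* (log2 fold change -0.84, SE 0.17, adjusted p = 0.00848). FER4 stood at 41.4, 44.8, 35.4 and 17.4 CPM in Col-0 and at 15.8, 14.9, 16.2 and 13.6 CPM in *ubp5* (log2 fold change -1.20, SE 0.26, adjusted p = 0.0112). Neither overlapped between genotypes, although for FER4 Col-0 replicate 4 came close to the *ubp5* libraries. FER2, the ferritin known from seeds, had 1 to 3 counts per library and was not tested. The 3 ferritins that were tested share at most 32 bases in a row.

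NRAMP3, which releases iron from the vacuole, stood at 66.0, 23.8, 40.6 and 46.8 CPM in Col-0 and at 16.3, 31.3, 25.4 and 17.2 CPM in *ubp5*. The groups overlapped through Col-0 replicate 2, and the log2 fold change was -0.97 (SE 0.29, adjusted p = 0.0482), close to both thresholds. With single libraries left out, its adjusted p ranged from 0.00980 to 0.140. PIC1, listed as TIC21 in the annotation and known from the chloroplast envelope, had the most counts of this list and stood at 59.2 to 72.6 CPM in Col-0 and 63.4 to 74.0 CPM in *ubp5* (log2 fold change 0.03, SE 0.11, adjusted p = 0.915).

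In the list of 9 other iron deficiency markers, 7 were tested, 2 were called higher and 1 lower. AT2G14247, an uncharacterized protein gene, stood at 1.14, 3.18, 6.77 and 9.37 CPM in Col-0 and at 13.8, 30.9, 20.4 and 23.1 CPM in *ubp5* (log2 fold change 2.09, SE 0.41, adjusted p = 0.00607). AT5G05250, likewise uncharacterized, stood at 5.31, 2.78, 14.3 and 13.0 CPM in Col-0 and at 14.8, 33.2, 26.1 and 25.8 CPM in *ubp5* (log2 fold change 1.48, SE 0.38, adjusted p = 0.0261). Its groups were separate by a narrow margin, and without *ubp5* replicate 2, 3 or 4 its adjusted p was 0.0858, 0.0624 or 0.0668. AT3G07720, annotated as a galactose oxidase/kelch repeat protein, was lower, at 28.5, 16.7, 23.7 and 29.1 CPM in Col-0 and 13.3, 12.2, 12.0 and 10.9 CPM in *ubp5* (log2 fold change -1.02, SE 0.20, adjusted p = 0.00611). Its fold change is at the threshold, and without Col-0 replicate 1 or 4 or *ubp5* replicate 4 it was -0.95, -0.93 or -0.97. DGAT3, annotated as a diacylglycerol acyltransferase and the gene with the most counts in the list, stood at 116 to 208 CPM in Col-0 and at 209 to 218 CPM in *ubp5* (log2 fold change 0.37, SE 0.15, adjusted p = 0.156).

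**Figure D2:**
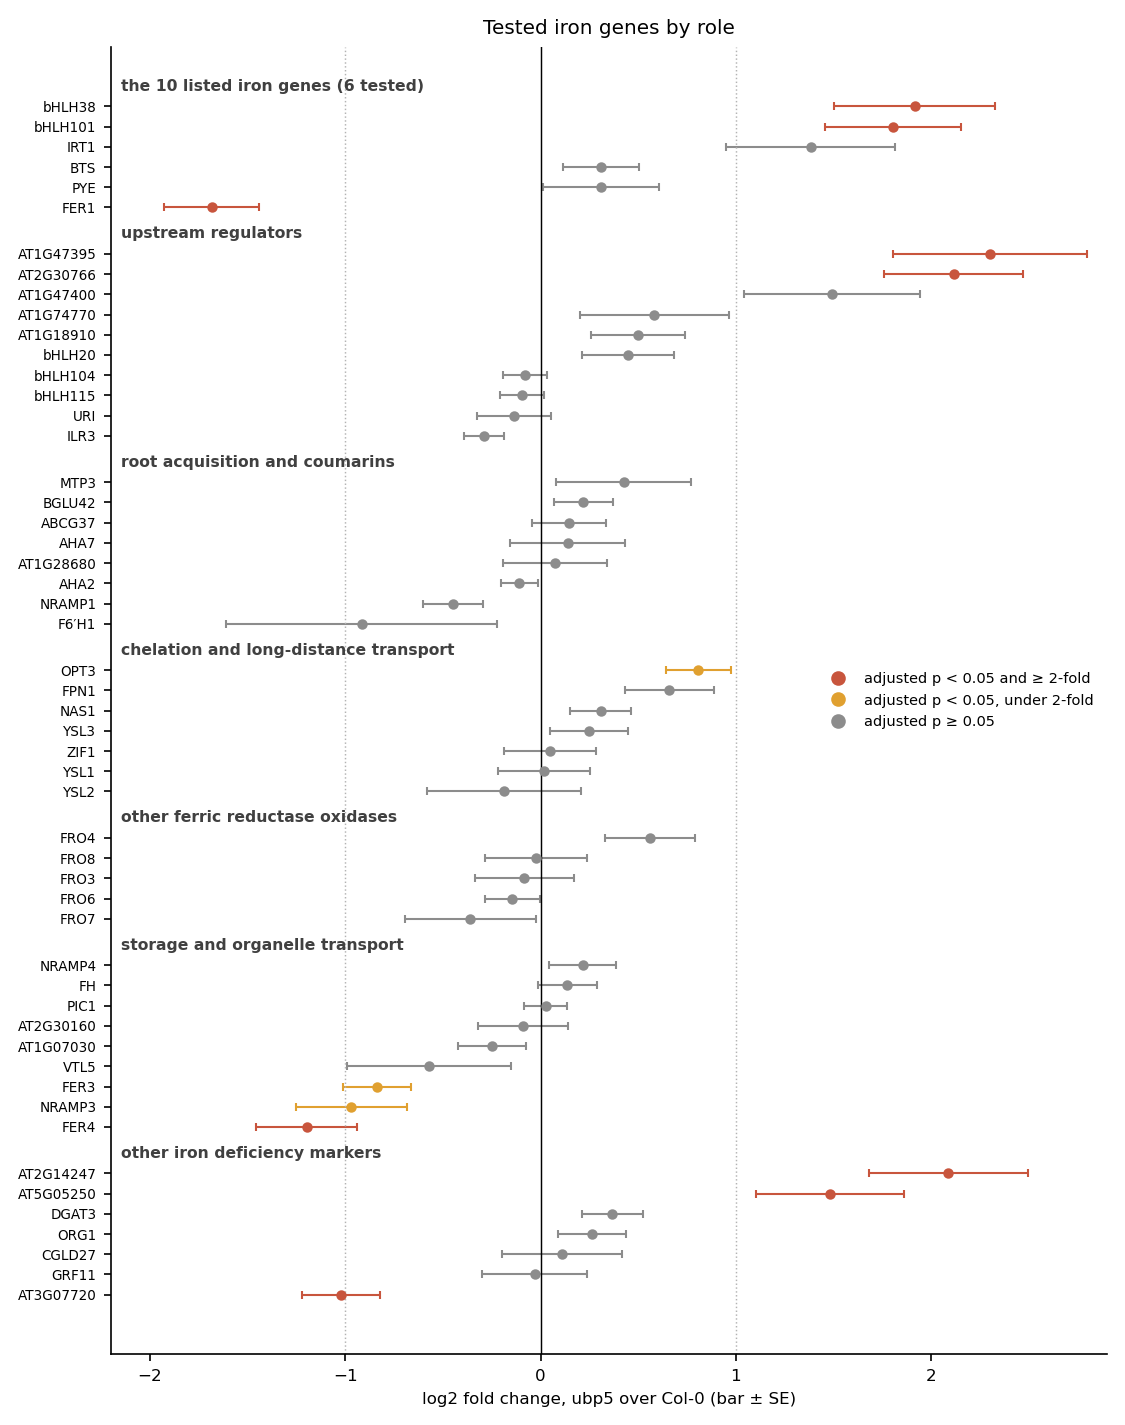
Log2 fold change of *ubp5* over Col-0 with its SE (horizontal axis) for the 6 tested genes of the 10 and the 46 tested genes of the 6 further lists, grouped by list, with dotted lines at the fold threshold. The Ib genes bHLH38 and bHLH101 and AT1G47395, AT2G30766, AT2G14247 and AT5G05250 lie beyond the threshold on the right, and FER1, FER4 and AT3G07720 on the left. The root acquisition and ferric reductase lists, with 8 and 5 tested genes, hold no coloured point, which is near the shares over all tested genes.

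**Figure D3:**
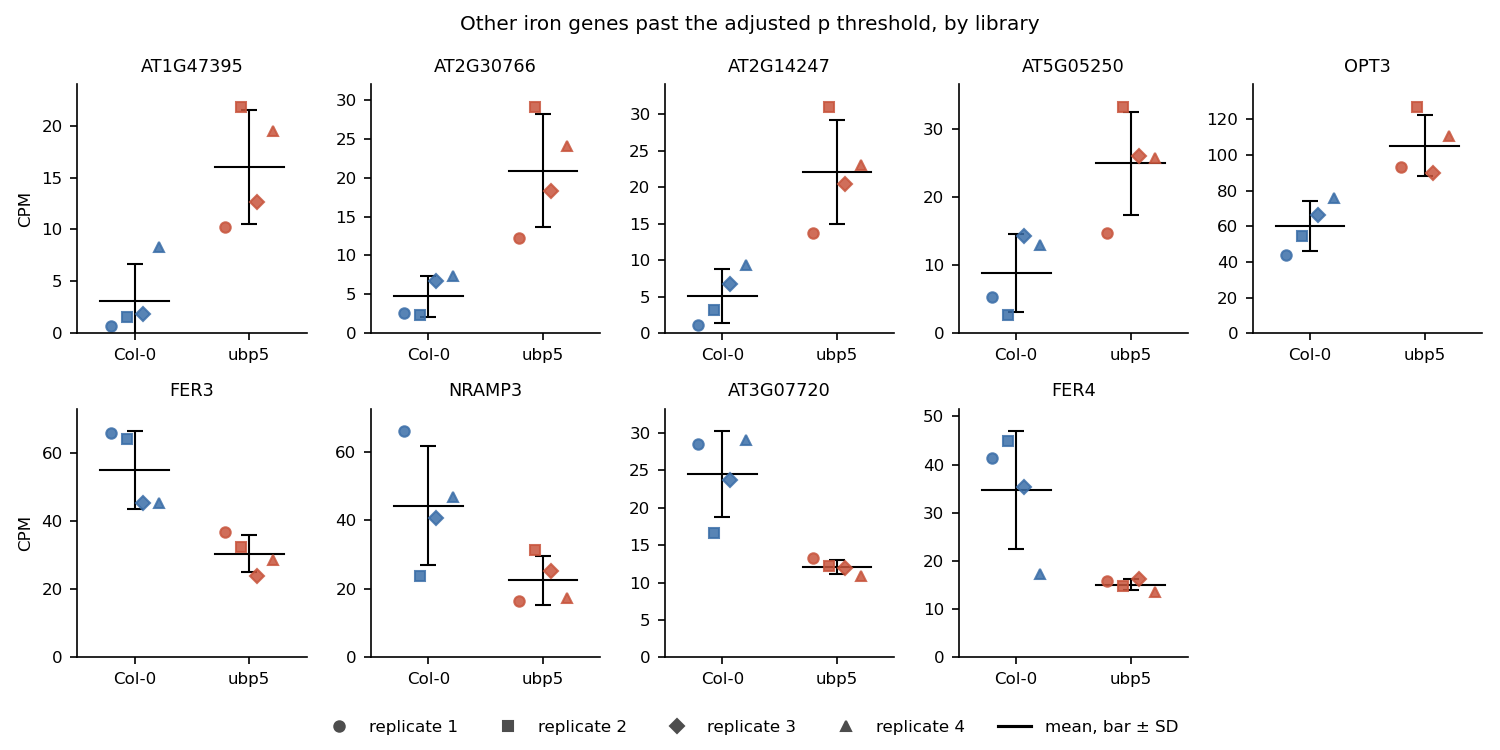
Level in CPM (vertical axes, from 0, scaled per gene) in each library for the 9 genes of the 6 further lists that passed the adjusted p threshold, drawn as for the 10 genes. OPT3 and the 4 genes left of it are higher in all *ubp5* than in all Col-0 libraries, FER3, FER4 and AT3G07720 are lower in all, and NRAMP3 overlaps.

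Within a genotype, many of these genes were high in the same library. Of the 9 genes other than FER1, Col-0 replicate 4 had the highest CPM of the Col-0 libraries for 7, and *ubp5* replicate 2 had the highest of the *ubp5* libraries for 5. The 5 other iron genes that rose had the same leaders: Col-0 replicate 4 was the highest Col-0 library for 4 of them, and *ubp5* replicate 2 was the highest *ubp5* library for all 5. FER1 ran the other way in Col-0, where it was lowest in replicate 4 and highest in replicate 1. Both leading libraries were the deepest of their genotype, with 2997743 and 2595285 counts, and the part of depth in this order was not tested.

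**Figure D4:**
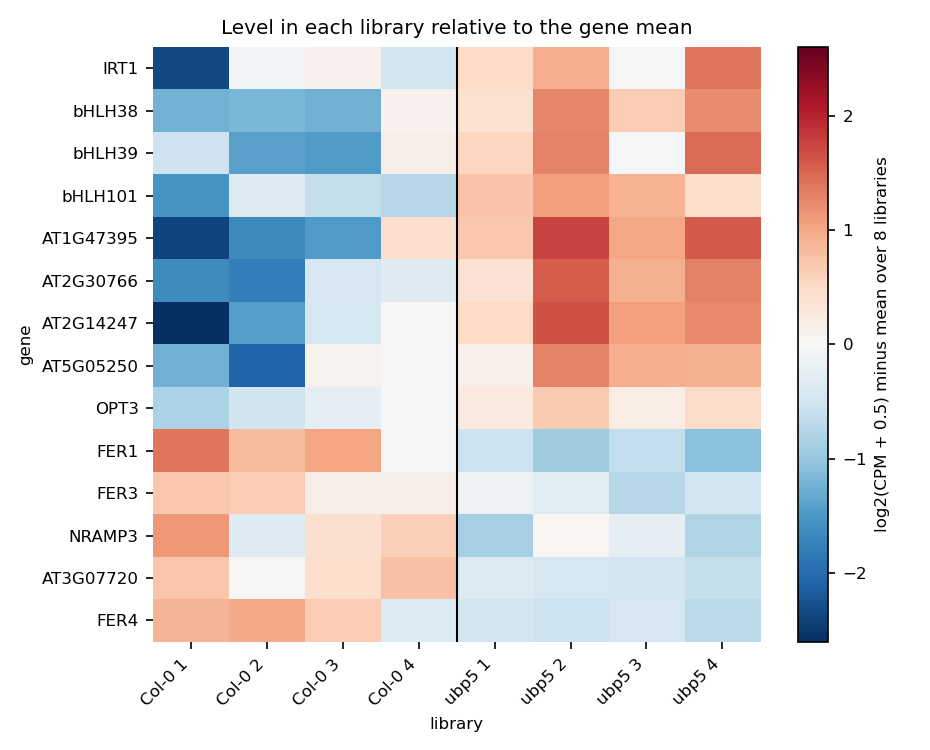
Level of 14 iron genes (rows) in the 8 libraries (columns), as log2(CPM + 0.5) minus the mean of the gene over all libraries, in red above and in blue below it, with a black line between genotypes. Among the Col-0 libraries, replicate 4 is nearest to the *ubp5* libraries for bHLH38, AT1G47395, AT2G14247, OPT3, FER1 and FER4.

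The same held for sums. The 4 Ib genes together stood at 3.80, 5.95, 5.64 and 11.4 CPM in Col-0 and at 15.3, 29.4, 16.2 and 23.5 CPM in *ubp5*, a ratio of means of 3.16 with separate groups. FER1, FER3 and FER4 together stood at 560, 415, 432 and 230 CPM in Col-0 and at 169, 138, 151 and 123 CPM in *ubp5*, which is 35.5% of the Col-0 mean. Col-0 replicate 4 had the highest Ib sum and the lowest ferritin sum of its genotype, and Col-0 replicate 1 the reverse. The mean root marker sum in *ubp5* was 77.9% of that in Col-0 and the mean leaf marker sum 73.9%. A single root marker, AT4G17340, held 218 of the 502 CPM of the root sum in the Col-0 mean. The sums of 6 root hair and 6 endodermis markers were at 79.3% and 84.8%, with overlapping groups. The ferritin sum holds 3 genes that had each passed as lower, and FER1 made up 320 of its 409 CPM in the Col-0 mean. The leaf sum rests mostly on RBCS1A and LHCB1.3. Single leaf markers differed: LHCB2.1 was called lower (log2 fold change -1.12, adjusted p = 0.00346 in edgeR), by more than FER3 (-0.84) and less than FER4 (-1.20). The log2 fold changes of the other leaf markers ran from -0.49 to -0.11. The part of the marker levels in these differences was not tested.

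**Figure D5:**
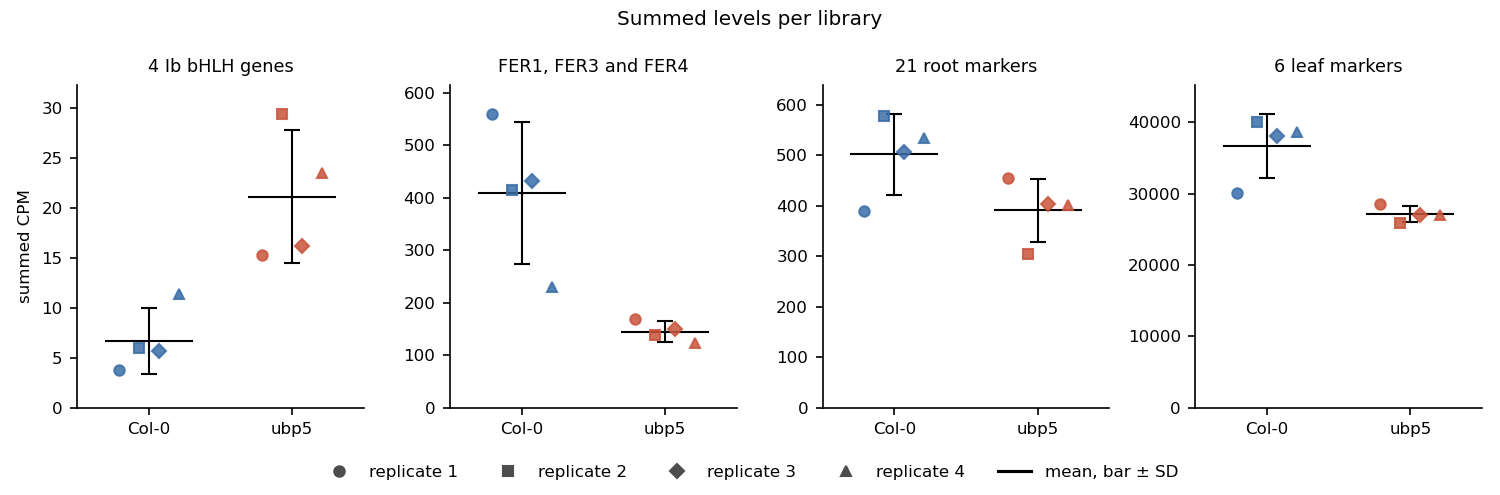
Summed CPM per library (vertical axes, from 0) of the 4 Ib bHLH genes, of 3 ferritin genes, of 21 root markers and of 6 leaf markers, with the mean ± SD of each genotype. The Ib sum is higher and the ferritin and leaf sums are lower in every *ubp5* library than in every Col-0 library, and the root marker sums overlap.

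The genes most like FER1 over the 8 libraries, by Pearson's r between deviations of log2(CPM + 0.5) from the genotype means, were AT2G45910 (r = 0.99), AT3G19950 (r = 0.98), AT2G14878, AT2G43535 (both r = 0.97) and AT3G58600 (r = 0.96). None of these 5 passed the adjusted p threshold. The genes most like the sum of the Ib genes were AT3G44750, the histone deacetylase gene HDA3 (r = 0.99), AT3G52630 and AT5G60670 (both r = 0.98), AT4G33865 and AT1G16520 (both r = 0.97). Of these, AT3G52630 and AT4G33865 passed the adjusted p threshold, both higher. These values are the highest of 15649 genes over 8 libraries that share depth differences, and they are given as a description.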

How the data were processed

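The authors demultiplexed and trimmed the 3′ RNA-seq reads with BRBseqTools, used STAR 2.7.8a for mapping to TAIR10 (Araport11 gene models), retained uniquely placed reads, and deposited for each library the count of distinct molecular tags per gene on the sense strand, not normalized and not pooled. Here these counts were tested with edgeR 4.0.16 in R 4.3.3 (quasi-likelihood test, TMM, filterByExpr with defaults), 4 *ubp5* against 4 Col-0 biological replicates without covariates, with Benjamini-Hochberg adjustment over 15649 genes. The SE of a log2 fold change is its size divided by the square root of F. Genes below the filter were tested by an exact permutation test on mean CPM. No count was pooled or imputed.

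Alternatives were DESeq2 1.42.0, its size factors in edgeR, no filter, the replicate number as a block, a minimum mean of 10 counts, organelle genes removed, an adjusted p under 0.01, and each library left out in turn. In simulated data for *ubp5* against Col-0 with 15649 genes, edgeR recovered 80 of 100 genes changed 2-fold and 98 of 100 changed 4-fold, and 18 of 20 genes with low counts among the latter, all at one shared dispersion. Symbols and positions are from RefSeq (TAIR10.1), which holds 37051 of the 37336 identifiers. The 10 genes, the lists and the markers were chosen with earlier results of these data known. Named are the 10 genes, UBP5, every gene of the 6 further lists past the adjusted p threshold, the gene with the most counts of each list, and the 5 genes most like FER1 and the Ib sum. PHO1, bHLH34, bHLH104, bHLH115, AT1G47400, IRT2, FER2, F6′H1, AT1G28680, VTL2 and the further genes named for a G-box were added after their values were seen. So were the leaf markers RBCS1A, LHCB1.3 and LHCB2.1 and the root marker AT4G17340. Python 3.11.15 drew the figures and searched the windows.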

Additional observations from a re-analysis of the deposited data

Results flagged for a closer look

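In 7 of 66 sets of 4 libraries examined, 1 library stood apart from the other 3 of its genotype. Chance gives about 1 in 20 for independent, normally distributed values. The sets share genes and many hold few counts, so the 7 cannot be weighed against that rate. Col-0 replicate 4 was apart for bHLH38 (3.68 CPM against 1.13 to 1.19), for AT1G47395 (8.36 CPM against 0.76 to 1.88), for PYE (9.70 CPM against 5.95 to 6.45) and for FRO6 (48.8 CPM against 34.2 to 36.1), each time on the high side. Col-0 replicate 1 was apart on the low side for PIC1 (59.2 CPM against 70.7 to 72.6) and for the sum of IRT1 and FRO2 (1.90 CPM against 7.14 to 7.36). In *ubp5*, replicate 1 was apart for FIT (0.51 CPM against 3.52 to 4.07), on the basis of 1 count. For bHLH38 and AT1G47395 the library that stood apart was the Col-0 library nearest to *ubp5*, and both calls held without it. What set these libraries apart was not tested.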

How the results depend on the processing

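bHLH38, bHLH101 and FER1 kept their direction in every alternative that tested them, and their call in all of these but 1: at an adjusted p under 0.01 the call of bHLH38 was lost (adjusted p = 0.0111). A mean of at least 10 counts left out both Ib genes, so 1 of the 10 genes was called, 0 higher, and 1 passed the adjusted p alone. Without a filter 5 were called, 4 of them higher, and 5 passed the adjusted p alone, the additions being IRT1 and bHLH39. DESeq2 called 4 of the 10. At an adjusted p under 0.01, 184 genes were called higher and 279 lower in all, 1 of the 10 was called higher, and 3 of the further iron genes were called, 2 higher and 1 lower. Leaving out each library in turn gave 249 to 465 genes called higher (465 without Col-0 replicate 1) and 402 to 493 lower, 3 to 4 of the 10 genes called (2 to 3 higher, 1 lower each time), 3 to 4 past the adjusted p alone, and 4 to 7 further iron genes called (3 to 5 higher, 1 to 3 lower). The low end of the last, 1, came without Col-0 replicate 1 or 4 or *ubp5* replicate 4, through AT3G07720. None of the 4 genes below the filter passed the exact permutation test in any alternative, and with 1 library left out that test cannot pass. With 1 library left out, the difference in mean CPM ranged from -1.26 to 0.0552 for FIT (reversed without *ubp5* replicate 1), from -0.483 to 1.08 for FRO2 and from -0.439 to 1.17 for bHLH100 (both reversed without *ubp5* replicate 2), and the log2 fold change of PIC1 ranged from -0.0387 to 0.0777 (reversed without Col-0 replicate 1). The causes were not tested.

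Same-numbered libraries did not deviate together (correlations -0.09, -0.12, 0.01 and 0.03). The labels do not say whether same numbers share a batch, and so few libraries cannot settle it. The samples were not treated as pairs in the main fit. With the replicate block, 269 genes were called higher and 396 lower, 3 of the 10 genes were called, and 1 further iron gene was called lower in place of 2. Below about 10 counts a library, as for FRO2, FIT, bHLH39 and bHLH100, counting error limits what can be seen. In Col-0 this holds for the called genes bHLH38 and bHLH101 as well.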

Other observations

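The gene of F6′H1 (AT3G13610), an enzyme of coumarin synthesis in the list of root acquisition genes, was chosen after its values were seen. It stood at 113 CPM in Col-0 replicate 1 and at 7.15 to 15.9 CPM in the other Col-0 libraries, and at 14.8 to 27.9 CPM in *ubp5*. AT1G28680 of the same list was also highest in Col-0 replicate 1, at 41.4 CPM against 17.9 to 19.2 CPM in the other Col-0 libraries and 21.9 to 31.0 CPM in *ubp5*. Neither gene passed the test between genotypes (adjusted p = 0.446 and 0.897). In the same library IRT1, at 2 counts, and the summed Ib genes were the lowest of all 8 libraries, and FER1 was the highest.

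VTL2 (AT1G76800) of the storage list, also chosen after its values were seen, had too few counts to be tested and stood at 1.34 to 5.56 CPM in Col-0 and at 0 to 2.11 CPM in *ubp5*. A G-box also lay in the windows of OPT3, 78 bases before the gene start, of FER3, at 76 bases, and of FER4, at 69 bases. AT5G05250 held 2, at 52 and 24 bases. These genes passed the adjusted p threshold, as did AT1G47395, AT2G30766, AT2G14247, NRAMP3 and AT3G07720, whose windows held none. A G-box lay as well in the windows of bHLH11 (60 bases), AT4G37850 (79 bases), FRO6 (98 bases), FRO7 (118 bases) and DGAT3 (220 bases), which did not pass or were not tested. No match was found in the windows of the 15 root acquisition genes, of the 21 root markers or of the 6 leaf markers. Of all windows of protein-coding genes 6.49% held a G-box, so few matches would be due in sets of this size.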
